A study of Mus musculus with 6 samples.

Results

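The genes described here encode the respiratory chain and the ATP synthase of mitochondria. They are all genes whose symbol in the platform annotation starts with Nduf, Uqcr, Cox4, Cox5, Cox6, Cox7, Cox8 or Atp5, together with Sdha, Sdhb, Sdhc, Sdhd and Cyc1. This gave 91 of the 18193 genes that the annotation names by a single symbol, and the probe set with the highest mean of the 6 log2 signals stood for each gene. Sorted by complex, 34 are subunits of complex I, 8 are Nduf-named assembly factors of complex I, 4 belong to complex II, 9 to complex III, 19 to complex IV and 17 to complex V, the ATP synthase. Ndufa4 and its relative Ndufa4l2, named for complex I, were counted with complex IV, to which Ndufa4 is now assigned. Membership follows from the gene names, and the probe set from its mean over all 6 arrays, whatever their genotype.

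The study compared livers of ACBP-/- and wild-type (+/+) mice at 21 days of age, all of strain C57BL/6JBomTac and in the fed state. ACBP, encoded by the gene Dbi, binds long-chain acyl-CoA esters inside the cell. Each array carried RNA of 5 livers pooled in equal amounts, so 15 mice of each genotype gave 3 wild-type and 3 knockout pools, and the spread between pools is that of means over 5 mice. The labels do not say whether the deletion is confined to some tissues.

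The respiratory chain passes electrons from NADH (complex I) and from succinate (complex II) through ubiquinone to complex III, and through cytochrome c to complex IV, where oxygen is reduced. Complexes I, III and IV pump protons across the inner mitochondrial membrane, and the ATP synthase uses the gradient to make ATP. In liver the chain takes up the electrons that fatty acid oxidation and the tricarboxylic acid cycle release. The genes described here are those of the nucleus; mitochondrial DNA encodes further subunits, which are not analysed here.

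Values are log2 signals of the MAS5 algorithm, which also calls each probe set Present, Marginal or Absent, and every difference is knockout minus wild type. Dbi read 15.94, 15.74 and 15.77 in wild-type pools 1, 2 and 3, and 5.37, 5.32 and 5.15 in knockout pools 1, 2 and 3. It was called Absent in knockout pools 1 and 3 and Present in knockout pool 2. Of 8 hepatocyte markers listed, 7 were on the array under a single symbol, all Present on the 6 arrays, and 0 were called changed, with a summed linear signal of 94900 to 96100 (wild type) and 95000 to 95600 (knockout). Present calls made up 48.4% (knockout pool 3) to 51.1% (knockout pool 1) of all probe sets. The actin 3'/5' signal ratio, a sign of RNA integrity, was 2.18 to 2.19 (wild type) and 2.34 to 2.35 (knockout), so it differed between the genotypes without overlap. The same ratio of Gapdh was 0.874 to 0.916 (wild type) and 0.906 to 0.909 (knockout), with overlap. Knockout pool 1 gave an Absent call for the Y-linked Eif2s3y (1.16, against 6.97 to 8.69 elsewhere). Xist, a transcript of female cells, read 11.04, 9.14 and 11.01 in wild type and 11.14, 10.03 and 9.04 in knockout, so it varied within both genotypes. The part of the actin ratio and of the sex of the mice in the results was not tested.

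Of the 91 genes, 86 were tested, being Present on at least 3 of the 6 arrays. The other 5 (Cox4i2, Cox7b2, Cox8b, Cox8c and Ndufa4l2) had no Present call on any array. The threshold for a call was an adjusted p of 0.05 in limma, with Benjamini-Hochberg adjustment over all 22482 probe sets tested. By this rule 1 of the 86 genes, the assembly factor Ndufaf4, rose in the knockout and 0 fell, while 7.25% of all 10580 genes tested were called, 3.38% higher and 3.87% lower. At an unadjusted p below 0.05 there were 10 of the 86 (11.6%), all with the higher mean in knockout, against 20.5% of all genes in either direction and 10.9% with the higher mean in knockout. None of the 78 tested subunits, as opposed to assembly factors, was called by limma, and 9 of them had an unadjusted p below 0.05. Because the samples are whole liver, fewer cells of a type and less RNA per cell cannot be told apart in these values.

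The differences were small and mostly of 1 sign. The knockout mean was higher for 68 of the 86 genes (79.1%), against 54.2% of all genes, and the median difference was 0.05, against 0.02 for all genes. After quantile normalization the count was 60 of 86, against 52.7% of all genes. All 3 knockout pools lay above all 3 wild-type pools for 16 of the genes (18.6%), where 13.1% of all genes did so. They lay below for 3 (3.49%), Ndufa8, Cox6c and Atp5k, where 12.6% of all genes did so. The 95% interval of the difference lay within 1.2-fold in either direction for 70 of the 86 genes and within 1.5-fold for 83. The 3 whose interval reached past 1.5-fold were Ndufaf4, Cox7a1 and the dim probe set of Ndufb4. The median standard error of these genes, 0.06, was smaller than that of all genes, 0.11. Median differences were 0.08 for complex I, -0.02 for its assembly factors, 0.08 for complex II, 0.03 for complex III, 0.02 for complex IV and 0.04 for complex V. Single pools moved most of these medians by more than 1.5 times. The median was 0.036 for complex I and 0.010 for complex III without knockout pool 1, and 0.067 for complex III without knockout pool 3. For complex IV it was 0.047 when knockout pool 2 was left out and 0.0045 when wild-type pool 2 was, and for complex V it was 0.0039 after quantile normalization and 0.019 without wild-type pool 3. That of the assembly factors ran from -0.052 without knockout pool 2 through -0.049 without wild-type pool 1, -0.043 without knockout pool 1, -0.012 without wild-type pool 2 and -0.0079 without wild-type pool 3 to 0.038 without knockout pool 3.

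**Figure D1:**
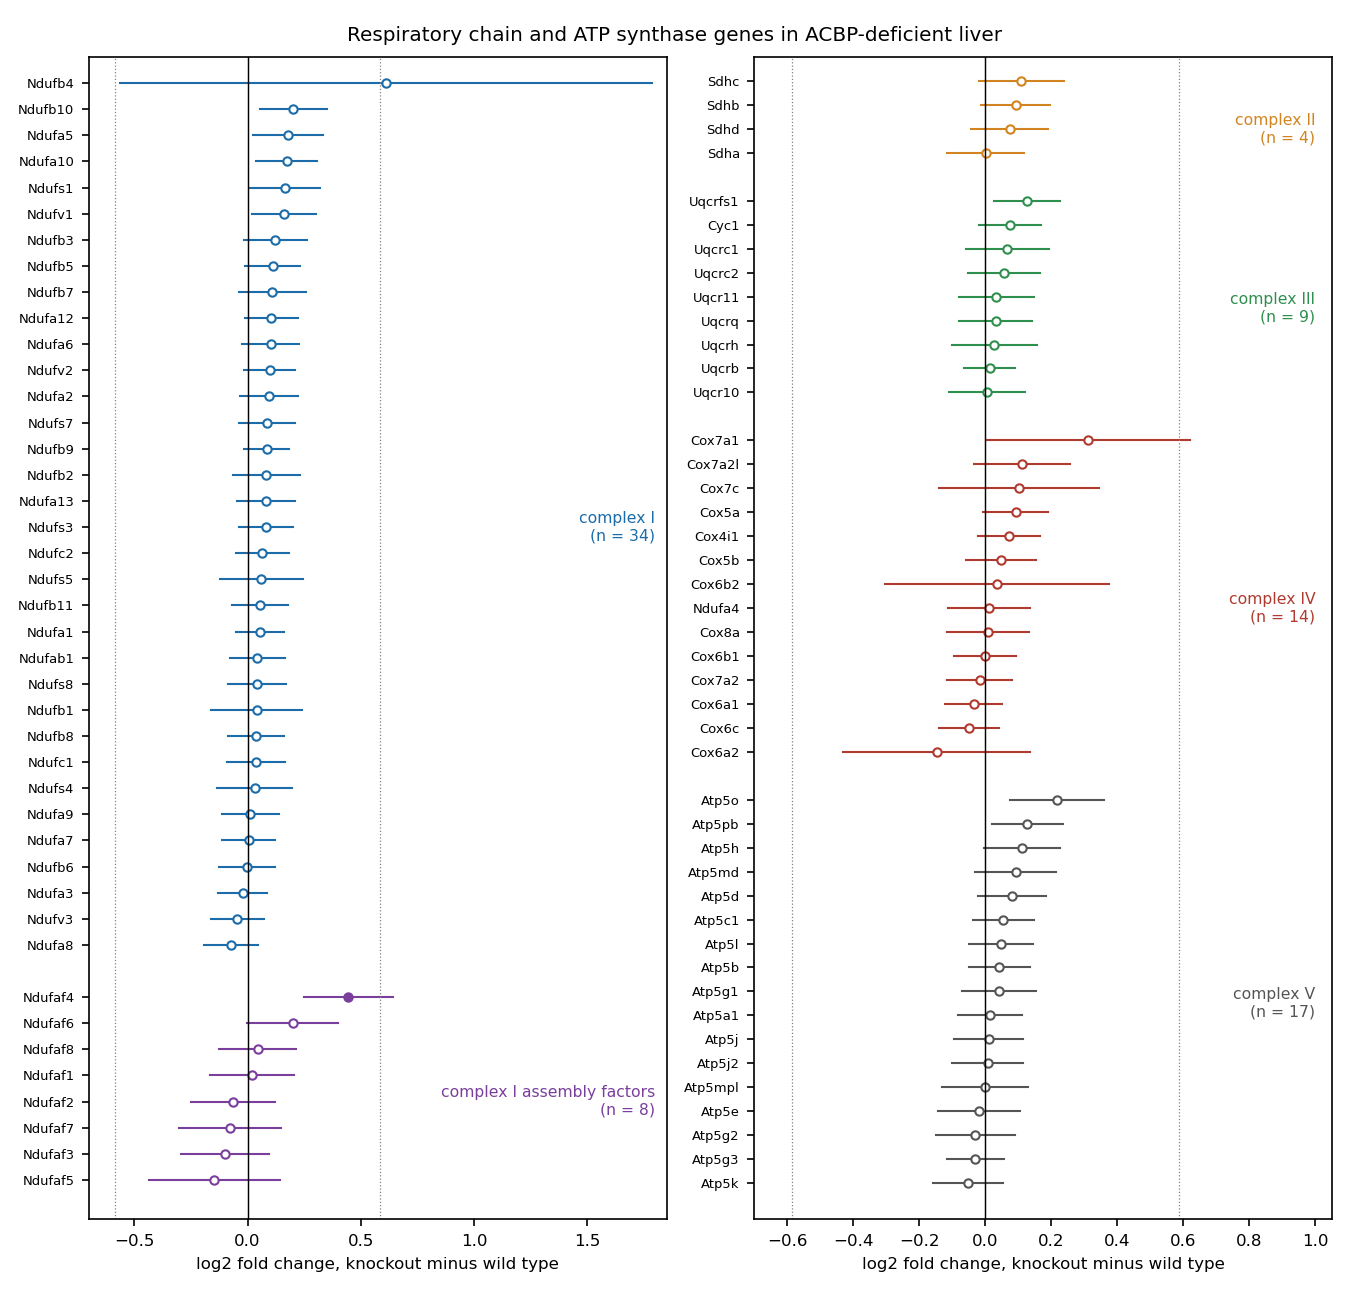
Difference between knockout and wild type (log2, horizontal axis) for each tested gene, in panels by complex whose horizontal ranges differ. Points are estimates, bars are 95% intervals of the moderated fit, filled points passed the adjusted threshold and dotted lines mark 1.5-fold. Ndufaf4 is the 1 filled point of 86, and 68 points lie to the right of 0.

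Ndufaf4 encodes a protein that in human cells is needed to assemble complex I and is not part of the finished enzyme. It read 8.57, 8.70 and 8.54 in the wild-type pools and 9.15, 9.09 and 8.91 in the knockout pools. All knockout pools lay above all wild-type pools. The difference was 0.45 (SE 0.09, 95% interval 0.25 to 0.64), a ratio of 1.36, with an adjusted p of 0.00681 in limma. A second probe set of Ndufaf4 read 8.49, 8.48 and 8.59 in wild type and 9.13, 9.12 and 8.82 in knockout, a difference of 0.51 (SE 0.10, adjusted p 0.0042 in limma), so 2 probe sets gave the same call. A two-sided exact permutation test of the pools gave 0.1, the smallest p that groups of 3 allow. Without the intensity trend in the variance the adjusted p of limma for Ndufaf4 was 0.0833 and the call was lost, and leaving out 1 pool at a time gave 0.00102 to 0.0443. In the authors' deposited table the corrected p of Ndufaf4 is 0.275 at an absolute fold of 1.361, and 0 of the 91 genes have a corrected p below 0.05.

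The promoter windows of Ndufaf4, the called gene, and of Atp5o, whose call depended on the scaling, are shown because both hold a match to a motif of NRF1, a transcription factor known for driving many genes of the respiratory chain. Each runs from 250 bases before to 50 bases after the annotated gene start in RefSeq (build GRCm38.p6), written 5' to 3' on the strand of the gene, at chr4:24897833-24898132 (plus strand) for Ndufaf4 and chr16:91931581-91931880 (minus strand) for Atp5o. Capitals mark the match to the NRF1 motif, which is GCGCA, any base and GCGC, searched on both strands.
Ndufaf4: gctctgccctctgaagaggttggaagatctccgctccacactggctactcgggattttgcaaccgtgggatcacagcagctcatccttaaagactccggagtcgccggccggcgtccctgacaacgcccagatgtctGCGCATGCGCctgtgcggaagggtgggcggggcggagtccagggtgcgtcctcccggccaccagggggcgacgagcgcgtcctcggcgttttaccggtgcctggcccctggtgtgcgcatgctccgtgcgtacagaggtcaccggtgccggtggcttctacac
Atp5o: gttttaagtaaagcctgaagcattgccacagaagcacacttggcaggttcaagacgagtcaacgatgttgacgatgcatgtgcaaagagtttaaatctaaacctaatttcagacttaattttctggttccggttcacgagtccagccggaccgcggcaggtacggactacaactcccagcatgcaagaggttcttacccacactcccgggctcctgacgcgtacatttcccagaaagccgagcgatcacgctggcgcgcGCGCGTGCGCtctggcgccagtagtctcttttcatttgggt
Counted from the gene start, the match begins at position -113 in Ndufaf4 and at position 9, in the transcribed stretch, in Atp5o, where it lies on the opposite strand.

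RefSeq held a promoter window for 74 of the 91 genes. The NRF1 motif was found in 17 of them (23.0%), against 5.19% of all genes with a window and 11.9% of the tested genes with one. Among these 17 were also Ndufa8 and Atp5k, for which all knockout pools lay below all wild-type pools. Whether the motif goes with the differences was not tested. The ETS motif CCGGAAG, bound by the factor GABP among others, was in 19 (25.7%), against 9.93% of all and 20.4% of tested genes. The YY1 motif AAGATGGCG was in 7 (9.46%), against 1.64% and 3.62%. The motif TNAAGGTCA of the estrogen-related receptors was in 3 (4.05%), against 1.43% and 0.963%, and the cyclic AMP response element TGACGTCA was in 3 (4.05%), against 2.03% and 3.39%. Both strands were searched and the shares overlap, since a window can hold several motifs. The windows of the 74 genes were richer in G and C (median 59.0%) than all windows (52.7%), and 4 of the 5 motifs hold CG. A match is a description of the letters, and binding was not measured.

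Complex I, the NADH:ubiquinone oxidoreductase, had 34 tested subunits, of which 30 had a higher knockout mean, 5 an unadjusted p below 0.05 and 0 a call. All 6 core subunits measured, which are conserved from bacteria, had a higher knockout mean, with a median difference of 0.09. Ndufb10, an accessory subunit of the membrane arm, read 11.33, 11.40 and 11.47 in wild type and 11.70, 11.67 and 11.44 in knockout, a difference of 0.20 (SE 0.07, adjusted p 0.122 in limma). Knockout pool 3 of Ndufb10 lay within the wild-type range. Ndufa10, another accessory subunit, read 10.85, 10.92 and 10.99 in wild type and 11.15, 11.08 and 11.05 in knockout, without overlap, a difference of 0.17 (SE 0.06, adjusted p 0.142 in limma). Ndufa5, an accessory subunit of the matrix arm, read 10.86, 10.87 and 10.93 in wild type and 11.17, 11.13 and 10.90 in knockout. Its difference of 0.18 (adjusted p 0.201 in limma) came from knockout pools 1 and 2, since pool 3 lay among the wild-type values. Dimmer probe sets of Ndufa10 and Ndufa5 differed by 0.07 and 0.13 (adjusted p 0.872 and 0.506 in limma), both with overlap. The core subunits Ndufv1, which binds NADH and flavin, and Ndufs1, which carries iron-sulfur clusters, differed by 0.16 and 0.17 (adjusted p 0.205 and 0.239 in limma).

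Ndufs7, the core subunit that holds the iron-sulfur cluster next to ubiquinone, gave different calls at its 2 probe sets. The brighter one, which stood for the gene, read 11.13, 11.07 and 11.16 in wild type and 11.24, 11.18 and 11.20 in knockout (difference 0.09, adjusted p 0.495 in limma). The dimmer one of Ndufs7 read 10.70, 10.76 and 10.85 in wild type and 11.21, 11.07 and 10.90 in knockout, a difference of 0.29 (SE 0.08, adjusted p 0.0379 in limma). Both sets of Ndufs7 were without overlap between the genotypes. Over the 48 genes with at least 2 tested probe sets, 75 further probe sets were tested, of which 56 had the sign of the brightest one and 2 were called, that of Ndufs7 and the second one of Ndufaf4, against 5.68% of all probe sets tested.

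Ndufb4, a membrane-arm subunit, had the difference of largest size in complex I, 0.61, with a standard error of 0.56 (adjusted p 0.633 in limma). Its probe set was dim, reading 3.47, 3.71 and 1.26 in wild type and 3.28, 3.41 and 3.59 in knockout with 4 Present calls, and wild-type pool 3 alone was low. Without that pool the difference of Ndufb4 was -0.17. Brighter probe sets that Ndufb4 shares with near copies of the gene differed by 0.06 and 0.10, with adjusted p of 0.648 and 0.412 in limma.

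Among the other complex I assembly factors, Ndufaf6 read 8.17, 8.31 and 8.43 in wild type and 8.46, 8.56 and 8.48 in knockout. The groups did not overlap, though the nearest pools almost met, and the difference was 0.20 (SE 0.10, adjusted p 0.287 in limma). Ndufaf5, which in human cells hydroxylates the Ndufs7 protein, read 6.26, 6.11 and 6.33 in wild type and 6.21, 6.22 and 5.83 in knockout (difference -0.15, adjusted p 0.639 in limma). Ndufaf3, the binding partner of Ndufaf4 in human cells, differed by -0.10 (adjusted p 0.639 in limma). Of the 8 assembly factors, 4 had a higher and 4 a lower knockout mean, and Ndufaf4 was the 1 that was called.

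Complex II, succinate dehydrogenase, had all 4 knockout means higher and 0 calls in limma, with 0 genes at an unadjusted p below 0.05. Sdhb, the iron-sulfur subunit, read 12.31, 12.31 and 12.38 in wild type and 12.45, 12.46 and 12.37 in knockout (difference 0.09, adjusted p 0.353 in limma). Sdhc, a membrane anchor, read 10.93, 10.95 and 11.00 in wild type and 11.06, 11.13 and 11.02 in knockout, without overlap (difference 0.11, adjusted p 0.384 in limma). Sdhd, the other anchor, read 11.64, 11.70 and 11.65 in wild type and 11.81, 11.73 and 11.68 in knockout, and its wild-type pool 2 lay above knockout pool 3. A dimmer probe set of Sdhd differed by 0.23 (SE 0.08, adjusted p 0.126 in limma), also with overlap. Sdha, the flavin subunit, differed by 0.00 (SE 0.06).

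Complex III, which passes electrons from ubiquinol to cytochrome c, had 9 of 9 knockout means higher, 1 gene at an unadjusted p below 0.05 and 0 calls in limma. That gene was Uqcrfs1, the Rieske iron-sulfur protein, at 12.21, 12.27 and 12.23 in wild type and 12.38, 12.35 and 12.35 in knockout. The groups of Uqcrfs1 did not overlap, and its difference was 0.13 (SE 0.05, adjusted p 0.151 in limma). In the authors' deposited table Uqcrfs1 has the lowest corrected p of the 91 genes, 0.229. Cyc1, cytochrome c1, read 12.53, 12.53 and 12.49 in wild type and 12.59, 12.58 and 12.61 in knockout, without overlap (difference 0.07, adjusted p 0.427 in limma). Uqcrc2, a core protein, read 12.00, 12.06 and 12.04 in wild type and 12.10, 12.14 and 12.04 in knockout (difference 0.06). A dimmer probe set of Uqcrc2 differed by 0.25 (SE 0.07, adjusted p 0.0612 in limma), with overlap between the genotypes.

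Complex IV, cytochrome c oxidase, has several subunits that exist in tissue isoforms. Of its 19 genes 14 were tested, 9 had a higher knockout mean and 0 were called in limma, with 1 at an unadjusted p below 0.05. That gene was Cox7a1, the heart and muscle form, reading 5.99, 5.79 and 5.96 in wild type and 6.46, 6.29 and 5.92 in knockout. Its difference was 0.31 (SE 0.15, adjusted p 0.281 in limma), and knockout pool 3 lay within the wild-type range. Of 12 striated muscle markers on the array, 9 had no Present call, 0 were tested, and their summed signal was 391 to 455 (wild type) and 392 to 476 (knockout). Cox5a read 12.44, 12.48 and 12.48 in wild type and 12.53, 12.54 and 12.61 in knockout, without overlap (difference 0.09, adjusted p 0.327 in limma). Cox4i1, the form made in most tissues, read 12.89, 12.90 and 12.93 in wild type and 13.04, 12.97 and 12.93 in knockout (difference 0.07, adjusted p 0.435 in limma). Cox6a2, another muscle form, read 7.51, 7.28 and 7.38 in wild type and 6.93, 7.28 and 7.52 in knockout (difference -0.15, adjusted p 0.633 in limma), with 5 Present calls.

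The isoform pairs were compared as the difference between the log2 signals of their members in each pool, so that a shift shared by both members drops out. Of 7 pairs, 4 could be tested, and the exact permutation p was adjusted over those 4. Cox7a1 relative to Cox7a2, the form of other tissues, was higher in knockout by 0.33 (exact permutation p 0.2, adjusted 0.4). Cox6a1 relative to Cox6a2 differed by 0.11 (exact permutation p 0.6), and Atp5g2 relative to Atp5g3 by 0.00 (exact permutation p 1.0). Atp5g1 relative to Atp5g2 was 0.44, 0.41 and 0.41 in wild type and 0.46, 0.55 and 0.45 in knockout, without overlap (difference 0.07, exact permutation p 0.1, adjusted 0.4). Those 3 Atp5g genes encode the same mature c subunit of the ATP synthase, and differed by 0.04, -0.03 and -0.03 in order of number, where that of Atp5g1 was -0.0016 after quantile normalization. For Cox4i1 and Cox4i2, Cox8a and Cox8b, and Ndufa4 and Ndufa4l2, the second member had no Present call. Cox8a, Cox7a2, Cox6a1 and Ndufa4 differed by 0.01, -0.02, -0.04 and 0.01, and after quantile normalization the values of Cox8a and Ndufa4 were -0.0003 and -0.0083.

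Complex V, the ATP synthase, had 17 tested genes, 12 with a higher knockout mean, 2 at an unadjusted p below 0.05 and 0 calls in limma. Atp5o, the subunit that joins the peripheral stalk to the catalytic head, read 11.24, 11.28 and 11.36 in wild type and 11.60, 11.57 and 11.37 in knockout. Its lowest knockout pool, pool 3, lay just above its highest wild-type pool, and the difference was 0.22 (SE 0.07, adjusted p 0.0729 in limma). After quantile normalization Atp5o was called (adjusted p 0.0415 in limma, where 9.59% of all genes were called), as it was after median centring (0.0474) and without knockout pool 3 (0.00501). A second probe set of Atp5o read 9.20, 9.21 and 9.12 in wild type and 9.75, 9.53 and 9.18 in knockout, with pool 3 among the wild-type values (difference 0.31, adjusted p 0.134 in limma). Atp5pb, subunit b of the stalk, read 12.29, 12.39 and 12.25 in wild type and 12.48, 12.43 and 12.41 in knockout, without overlap (difference 0.13, adjusted p 0.187 in limma). Atp5h, subunit d of the stalk, read 12.22, 12.30 and 12.23 in wild type and 12.44, 12.38 and 12.26 in knockout, with overlap (difference 0.11, adjusted p 0.308 in limma). A second probe set of Atp5h differed by 0.06, also with overlap (adjusted p 0.617 in limma). A further stalk gene, Atp5j, differed by 0.01 (adjusted p 0.951 in limma).

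**Figure D2:**
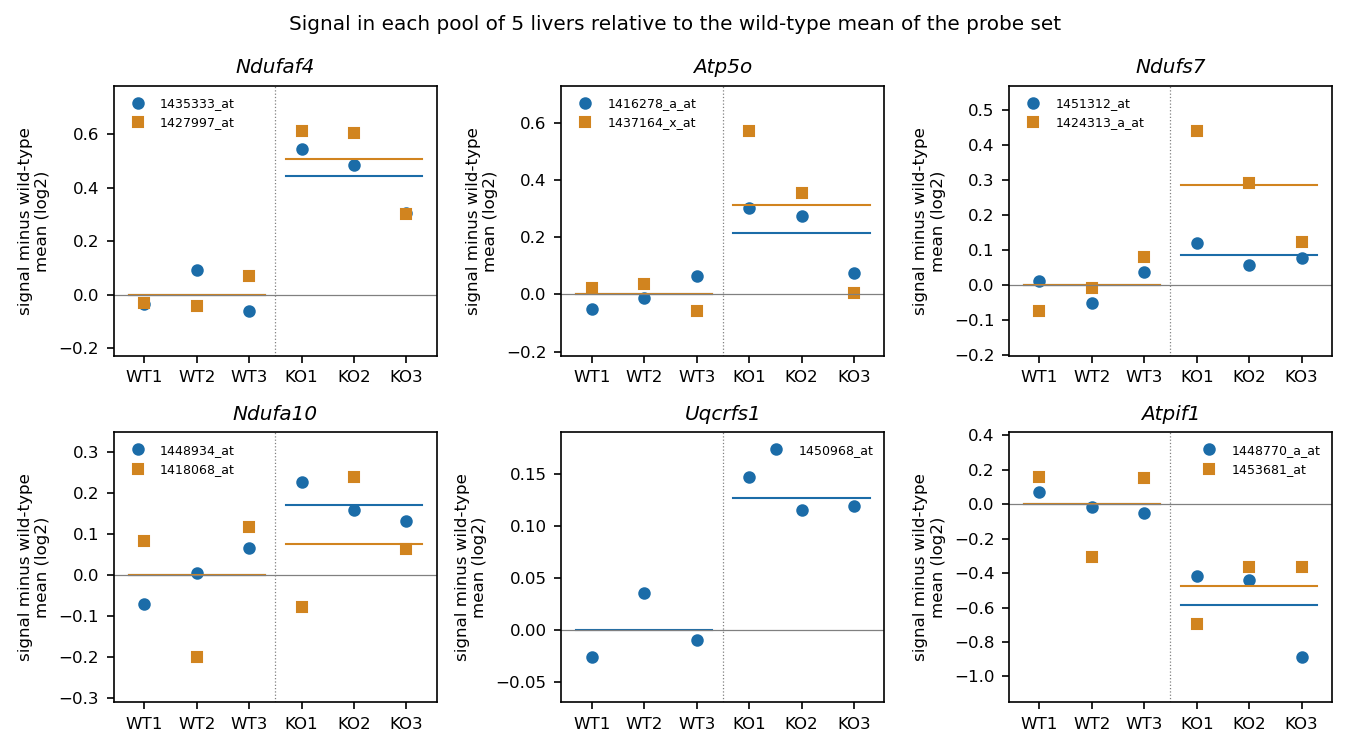
Log2 signal of each pool minus the wild-type mean of the same probe set (vertical axis, scales differ between panels) for Ndufaf4, Atp5o, Ndufs7, Ndufa10, Uqcrfs1 and Atpif1, with 1 symbol per tested probe set. Horizontal lines are group means and WT and KO are wild type and knockout. Both sets of Ndufaf4 lie above 0 in the 3 knockout pools, while for Atp5o knockout pool 3 lies close to wild type.

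The 3 knockout pools did not stand alike. The median deviation of the 86 genes from their mean over the 6 pools was 0.07, 0.02 and -0.02 in knockout pools 1, 2 and 3, and -0.04, -0.03 and -0.01 in wild-type pools 1, 2 and 3. For all genes tested it was 0.09, 0.04 and -0.09 in the knockout pools, so the same order held for all genes. Knockout pool 1 was the highest of the 6 for 50 of the 86 genes. That count was not made for all genes, whose median deviation in this pool, 0.09, was no smaller than that of the 86. Knockout pool 3 was the lowest knockout pool for 55 of the 86 (64.0%), as for 70.4% of all genes. Without knockout pool 3, 9 of the 86 genes were called higher: Ndufa5, Ndufa10, Ndufb3, Ndufb10, Ndufs1, Ndufaf4, Cox7a1, Atp5h and Atp5o, while 16.1% of all genes were called. After quantile normalization the median deviations of the 86 genes were 0.03, 0.01 and 0.01 in knockout pools 1, 2 and 3.

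**Figure D3:**
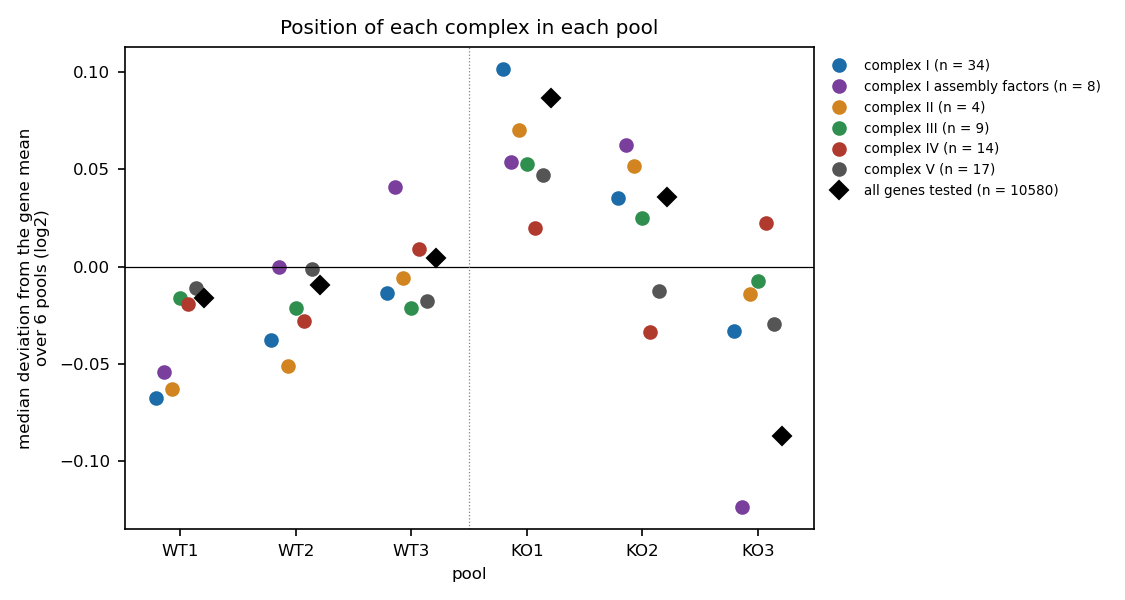
Median deviation of the genes from their mean over the 6 pools (log2, vertical axis) in each pool (horizontal axis), for each complex (circles) and for all genes tested (diamonds). Complex I is highest in knockout pool 1 at 0.10, where all genes stand at 0.09, and in knockout pool 3 all genes stand at -0.09 and complex I at -0.03.

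Genes that serve the chain without belonging to the families above were counted in 6 lists. Of 105 tested genes in the lists, 7 of them Nduf-named assembly factors, 9 rose and 1 fell (9.52%). Leaving out 1 pool gave 4 calls without wild-type pool 1, 5 without wild-type pool 2, 5 without knockout pool 1, 6 without knockout pool 2 and 24 without knockout pool 3. In the same order 2.84%, 3.85%, 4.71%, 3.83% and 13.4% of all probe sets tested were called, against 5.68% with all 6 pools. Without the intensity trend Polg2 alone kept its call (adjusted p 0.0477 in limma), while Fh1 (0.148), Atpif1 (0.103), Pdk2 (0.0974), Esrra (0.0709), Coq10b (0.16), Cox10 (0.125), Mdh2 (0.277), Idh3a (0.211) and Ndufaf4 (0.0833) lost theirs. Without the members of the chain 9 of 98 were called (9.18%), against 7.25% of all genes. Among the 21 genes of the tricarboxylic acid cycle and pyruvate dehydrogenase, 4 rose and 0 fell (19.0%), with a median difference of 0.12 against 0.02 for all genes. Fh1, fumarase, read 11.50, 11.51 and 11.65 in wild type and 11.97, 11.93 and 11.77 in knockout, without overlap (difference 0.34, SE 0.06, adjusted p 0.00363 in limma). Pdk2, a kinase that inactivates pyruvate dehydrogenase, read 8.33, 8.29 and 8.43 in wild type and 8.91, 8.72 and 8.67 in knockout (difference 0.42, adjusted p 0.013 in limma), and was not called without wild-type pool 1 (0.0703), wild-type pool 2 (0.0711) or knockout pool 1 (0.0535). Mdh2, malate dehydrogenase, and Idh3a, a subunit of isocitrate dehydrogenase, rose by 0.21 and 0.26 (adjusted p 0.031 and 0.0436 in limma), and both lost the call when any single pool but knockout pool 3 was left out. Further tested probe sets were not called, at 0.13 for Mdh2 (adjusted p 0.209 in limma) and 0.19 and 0.33 for Idh3a (0.395 and 0.142). Cs, citrate synthase, differed by -0.01 (SE 0.08).

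Regulators of mitochondrial biogenesis and of mitochondrial DNA had 17 tested genes, of which 2 rose (11.8%, against 7.25% of all genes called). Polg2, the accessory subunit of the polymerase that copies mitochondrial DNA, read 7.45, 7.55 and 7.45 in wild type and 8.10, 7.93 and 7.91 in knockout, without overlap (difference 0.50, SE 0.10, adjusted p 0.00532 in limma). Esrra, a nuclear receptor that binds the estrogen-related motif given above, read 6.55, 6.76 and 6.77 in wild type and 7.29, 7.14 and 7.11 in knockout (difference 0.48, SE 0.11, adjusted p 0.0154 in limma). Esrra was not called without wild-type pool 1 (0.122) or knockout pool 1 (0.0518). The 3 respiratory genes with a match to the estrogen-related motif, Atp5g3, Sdhd and Ndufb4, were not called, and a link to Esrra was not tested. A second probe set of Esrra differed by 0.36 (adjusted p 0.124 in limma). The coactivator Ppargc1a, the factor Nrf1 and the mitochondrial DNA packaging factor Tfam differed by -0.06, 0.00 and 0.16 and were not called.

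The 1 gene of the lists that fell was Atpif1, the inhibitor of ATP hydrolysis by the ATP synthase. It read 9.37, 9.28 and 9.25 in wild type and 8.89, 8.86 and 8.41 in knockout, without overlap, a difference of -0.58 (SE 0.11, adjusted p 0.00379 in limma). A dimmer probe set of Atpif1 differed by -0.47 (adjusted p 0.274 in limma). The other 8 tested genes of its list, 5 carriers (Slc25a3, Slc25a4, Slc25a5, Slc25a23 and Slc25a24) and the outer membrane channels Vdac1, Vdac2 and Vdac3, were not called, so that 1 of 9 was (11.1%, against 7.25% of all genes). The uncoupling proteins Ucp1 and Ucp3 had no Present call and were not tested.

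Among 36 assembly factors of all complexes 2 rose (5.56%, below the 7.25% of all genes called), Ndufaf4 and Cox10, the farnesyltransferase of heme A synthesis. Cox10 read 7.21, 7.34 and 7.42 in wild type and 7.79, 7.71 and 7.59 in knockout (difference 0.37, adjusted p 0.0458 in limma), and leaving out any single pool but knockout pool 3 raised its adjusted p to between 0.0803 and 0.256. A second tested probe set of Cox10 differed by 0.25 and was not called (adjusted p 0.225 in limma). Of 11 genes of ubiquinone synthesis and handling 1 rose (9.09%), Coq10b, which binds ubiquinone. Coq10b read 8.41, 8.26 and 8.70 in wild type and 8.75, 8.99 and 9.07 in knockout (difference 0.48, adjusted p 0.018 in limma), and its second probe set was called as well (0.45, adjusted p 0.0309 in limma). Coq10b was not called without wild-type pool 1 (0.0809), wild-type pool 2 (0.102) or knockout pool 2 (0.0666). Of 11 further carriers and donors of electrons 0 were called in limma, with 3 at an unadjusted p below 0.05. Chdh, choline dehydrogenase, had the smallest p there, with 10.74, 10.89 and 10.87 in wild type and 11.04, 11.07 and 10.92 in knockout (difference 0.18, adjusted p 0.15 in limma), and Cycs, cytochrome c, differed by 0.08.

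**Figure D4:**
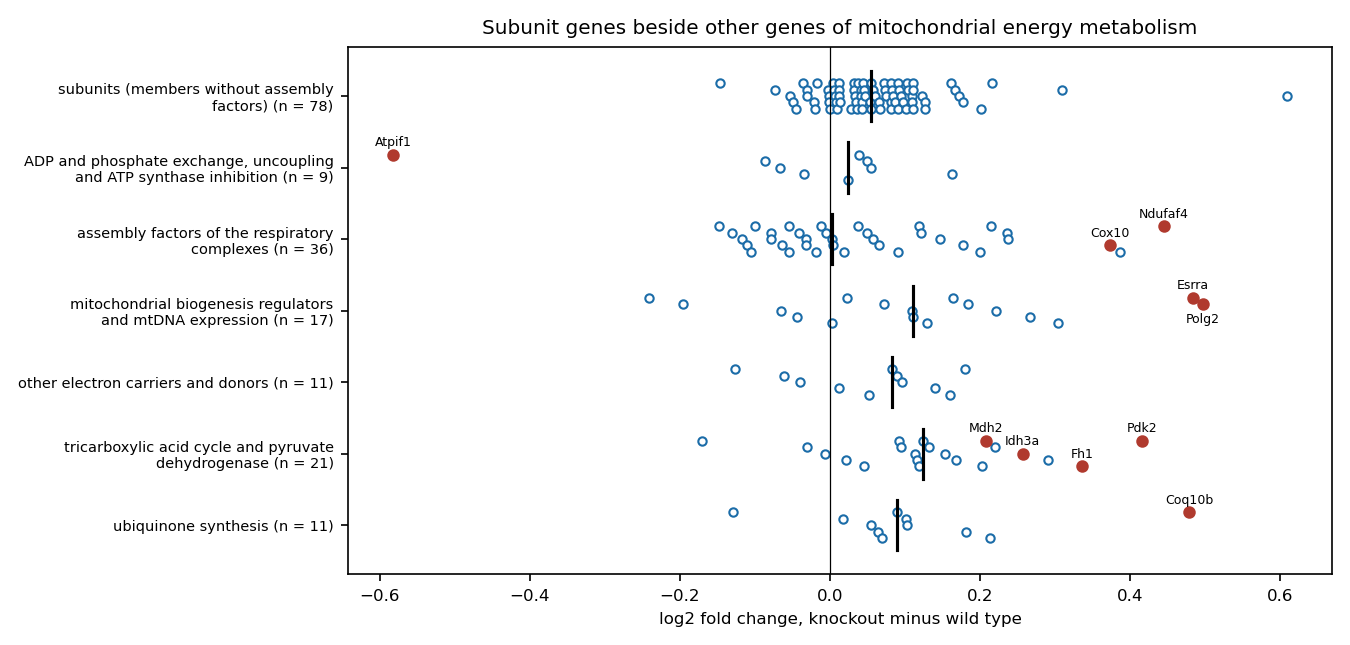
Difference between knockout and wild type (log2, horizontal axis) for each tested gene, in rows for the 78 subunits and for the 6 related lists, with called genes filled and named and vertical marks at the medians. Atpif1 is the 1 called gene left of 0, and none of the subunits is filled.

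Some markers of other cell types were called as well, where 7.25% of all genes tested were called. Of 5 tested pericyte and stellate cell markers Rgs5 rose by 0.35 while Reln and Acta2 fell by 0.24 and 0.40 (60.0% called, in both directions). Of 7 Kupffer cell markers Marco alone was called and fell by 0.44 (14.3%), while 3 of the 7 had a higher and 4 a lower knockout mean. Marco and Rgs5 lie on chromosome 1, as do the called genes Fh1 and Coq10b and the deleted gene Dbi. The part of this shared chromosome in their values was not tested. Of 6 sinusoidal endothelial markers Clec4g alone was called and fell by 0.27 (16.7%). In the pericyte and stellate list 2 of the 5 tested markers had a higher and 3 a lower knockout mean, and Reln, the brightest, weighs most in a sum. The summed signal of this list was 3220 to 3360 (wild type) and 3080 to 3120 (knockout), without overlap. That of the endothelial list was 5330 to 5640 (wild type) and 4820 to 5070 (knockout), also without overlap, and that of the Kupffer list 7250 to 8360 and 7510 to 7770. For the erythroid list it was 650 to 739 and 596 to 663, and for the brown adipocyte list 303 to 308 and 263 to 299, each with 2 tested markers, 0 of them called in limma, where 1 erythroid marker had an unadjusted p below 0.05. Male germ cell markers were not tested, since 6 of 7 had no Present call. The part of these cells in the values of the respiratory chain was not tested.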

How the data were processed

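RNA from 3 wild-type and 3 knockout liver pools was hybridised to Affymetrix arrays. For 45101 probe sets the authors deposited log2 signals with detection calls and their p-values, made with MAS5 per the submitters' processing notes, and their own corrected p-values and absolute fold changes. No source used here gives the background correction or scaling of MAS5, and dim signals vary widely on the log2 scale. Leaving out 64 control probe sets and those Present on fewer than 3 of 6 arrays left 22482, which were fitted with limma 3.58.1 in R 4.3.3 (lmFit, eBayes with an intensity trend, Benjamini-Hochberg). Signals were used as deposited, with no pseudocount. Simulated data with the spread of these arrays gave calls for 44.6% of 1.5-fold, 78.6% of 2-fold and 97.3% of 4-fold changes. Each simulated set changed 200 of the 22482 probe sets, a smaller share than was called here, and held no shift shared by a whole pool. The changed probe sets were drawn from all those tested (median standard error 0.12, against 0.06 for the respiratory genes). These shares therefore do not give the detection rate for the respiratory genes. Gene names came from the platform annotation, and the Entrez numbers of all 91 genes were found in RefSeq. Genes named in the text were called, or had the 3 smallest p-values or 2 largest changes in a complex, or form an isoform pair. Of each related list, called genes (up to 6 by smallest p), or else the smallest p, were named. Ndufv1, Ndufs1, Ndufs7, Ndufb3, Ndufa8, Cox6c, Atp5k, Ndufaf3, the called markers, Sdha, Atp5j, Cs, Cycs, Tfam, Ppargc1a and Nrf1 were chosen after their values were seen. Members and lists were chosen with earlier results of these data known. Alternatives were quantile normalization, median centring, a pseudocount of 16, detection filters, eBayes without the trend, pool number as a block, other probe sets and leaving out each pool. The pools carry no label of separate batches. The p-values and intervals of limma rest on the spread between pools, drawn toward that of probe sets of similar signal. They therefore do not measure the spread of a gene's own pools alone. For Cyc1 the standard deviations between pools were 0.022 (wild type) and 0.014 (knockout), while the standard error of its difference was 0.045.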

Additional observations from a re-analysis of the deposited data

How the results depend on the processing

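Counts of called genes moved most with the variance model and with knockout pool 3. Without the intensity trend 0 of the 86 respiratory genes, 1 of the related genes (Polg2) and 378 probe sets were called, against 1, 10 and 1277. Quantile normalization and median centring each called 2 of the 86 (Ndufaf4 and Atp5o), and counting any tested probe set of a gene gave 2. Leaving out 1 pool at a time gave 1 to 9 of the 86, 4 to 24 related genes and 639 to 3010 probe sets. The median difference of the 86 genes stayed between 0.03 and 0.08, and 62 had the higher knockout mean after median centring. Signs turned for Atp5g1 after quantile normalization (-0.0016), for Cox8a after quantile normalization (-0.0003) and median centring (-0.0015), and for Ndufa4 after quantile normalization (-0.0083). With 1 pool left out, ranges crossed 0 for the assembly factor median (-0.052 to 0.038), Cox6a2 (-0.29 to 0.011), Cox7a2 (-0.045 to 0.014), Cox8a (-0.0087 to 0.031), Ndufa4 (-0.032 to 0.044) and Ndufb4 (-0.17 to 1.06). The cause was not tested. Of 491 repeats over 38 named genes, 432 kept direction and side of the threshold, 38 lost and 9 gained a call, and 12, over 6 genes, turned sign. Pool numbers are shared between the genotypes, but same-numbered pools did not deviate together (correlations -0.03, -0.01 and -0.08), so the number was not taken as a pairing. With the pool number as a replicate block, 1 of the 86 genes, 8 related genes and 1370 probe sets were called, and Cox10 (adjusted p 0.059 in limma) and Idh3a (0.0566) were not. With 6 arrays the precision is limited, most of all for dim probe sets such as that of Ndufb4.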

Other observations

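The 10 probe sets that the annotation gives to several symbols, at least 1 of them of these families, were not counted as genes. Of these, 6 were tested and 0 were called in limma. The 2 tested probe sets shared by Ndufb4 and its near copies Ndufb4b and Ndufb4c, and the 1 shared by Ndufa11 and Ndufa11b, had all knockout pools above all wild-type pools, with differences of 0.06, 0.10 and 0.09. Of all probe sets tested 11.6% did so, and the 2 sets of Ndufb4 measure the same genes. The tested probe sets shared by Ndufs5, Ndufs6 or Ndufab1 with a copy or pseudogene overlapped between the genotypes, with differences of 0.04, 0.04 and 0.02.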
